A study of Rattus norvegicus with 15 samples.

Results

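The genes described here are 44 listed genes of rat chromosome 10 whose human homologs lie on 16p13 (13 genes), 5q (10 genes) and 17p (21 genes). They were chosen by name from an annotated position on the chromosome and not from a measured value, although earlier results of these data were known. A probe set, a group of short oligonucleotides against one transcript, was assigned to a member when the array annotation gave that gene as its only symbol. This held for 43 members with 91 probe sets, among 10927 genes named on the arrays. The remaining member, Ppp2ca, the catalytic subunit of protein phosphatase 2A, lay on 2 probe sets that also carry a second symbol, and it has no value here. In the order of the 1788 protein-coding genes of chromosome 10 in the rat assembly GRCr8, the members ran from Abcc1 at position 1 to Ywhae at position 935. The placement in the earlier part of the chromosome held for 40 members up to the midpoint at position 894, and 4 members (Pafah1b1, Pitpna, Crk and Ywhae) lay just past it.

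Total RNA of kidneys from 5-week-old rats was hybridised to 3 oligonucleotide array designs, A, B and C, with kidneys numbered 1 to 5 on each. Kidneys 1 to 3 came from the Dahl salt sensitive rat (Dahl S), an inbred strain whose blood pressure rises with dietary salt (n = 3). Kidneys 4 and 5 of arrays B and C came from a strain congenic for chromosome 10 on that background (n = 2). On array A the descriptions call kidneys 4 and 5 Dahl S as well, so that their strain is in doubt, and the comparison of array A is one of kidney numbers and not of strains. The sources used here name neither the donor strain nor the ends of the introgressed segment. Nor do they say whether each kidney came from its own animal, so the spread behind each p-value is that between these arrays and could be technical.

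A congenic strain differs from its recipient at the donor segment and at loci linked to it, so that sequence variants in the segment can alter the expression of the genes that they lie near. Rat chromosome 10 has long been studied as a carrier of blood pressure loci in crosses with the Dahl S strain. The members are neighbours and not a pathway. They include general cell machinery (the chaperone Canx, the ubiquitin ligase subunit Skp1, the mitochondrial pore Vdac1), signalling proteins (Arrb2, Crk, Map2k4, Ywhae) and genes best known from other tissues (the muscle myosin Myh4, the liver receptor Asgr1, the glutamate receptor Gria1).

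Upstream sequences from RefSeq (GRCr8) were matched to 35 of the 44 members. They are shown for Irf1 and Ntan1, which had the smallest unadjusted p among the members on array A, and for Hba-a1, which had the brightest member probe set of array B. Each run is the 250 bases before the annotated start, 5′ to 3′ on the strand of the gene. Capitals mark TTCNNNGAA and CCAAT in Irf1 (chr10:38417685-38417934, plus strand), GGGCGG in Ntan1 (chr10:2633186-2633435, minus strand), and TATAAA and CCAAT in Hba-a1 (chr10:15842581-15842830, minus strand), each searched on both strands. The sequences and the motifs in capitals were chosen after the values and matches had been seen; GGGCGG, which Irf1 also holds, is in capitals for Ntan1 alone.
Irf1: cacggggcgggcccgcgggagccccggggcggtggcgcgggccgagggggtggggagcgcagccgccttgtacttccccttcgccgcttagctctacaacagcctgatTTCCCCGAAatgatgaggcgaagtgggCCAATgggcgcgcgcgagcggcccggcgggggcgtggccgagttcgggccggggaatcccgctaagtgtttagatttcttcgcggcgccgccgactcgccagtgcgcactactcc
Ntan1: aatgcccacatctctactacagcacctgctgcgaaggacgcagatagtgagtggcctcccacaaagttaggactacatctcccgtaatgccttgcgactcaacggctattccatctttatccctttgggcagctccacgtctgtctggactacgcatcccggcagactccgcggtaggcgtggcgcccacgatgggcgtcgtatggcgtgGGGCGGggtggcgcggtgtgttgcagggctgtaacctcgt
Hba-a1: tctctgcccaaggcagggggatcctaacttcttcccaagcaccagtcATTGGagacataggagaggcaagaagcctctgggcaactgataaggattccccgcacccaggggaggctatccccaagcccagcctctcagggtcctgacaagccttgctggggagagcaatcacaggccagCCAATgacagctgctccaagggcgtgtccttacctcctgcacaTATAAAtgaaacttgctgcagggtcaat
The Irf1 match to TTCNNNGAA, the letters of the element bound by STAT factors in interferon-responsive promoters, lay 142 to 134 bases before the start. That of Hba-a1 to TATAAA, the TATA box, lay 28 to 23 bases before it. TTCNNNGAA was found upstream of 4 of the 35 members (Rrn3, Irf1, Asgr1 and P2rx1) and in 7.52% of all 27457 sequences of that length. TATAAA was found in 3 members and 13.1% of all sequences, CCAAT in 11 and 34.3%, and GGGCGG, the GC box, in 21 and 32.4%. The 4 other motifs searched were TGANNNNGC (11 members and 34.6% of all sequences), CACGTG (3 and 5.79%), TTCNNNGAA with a further T before it (3 and 3.99%), which overlaps TTCNNNGAA by construction, and the palindromic NRF1 consensus (0 and 0.849%). The ratio of observed to expected CpG, which is high in the promoters of broadly expressed genes, exceeded 0.6 in 23 of the 35 members and in 35.4% of all sequences. A match describes letters and is not evidence of binding.

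Array medians of the signal ran from 294.5 to 334.3 on A, from 472.8 to 519.5 on B and from 491.3 to 524.4 on C. Pairs of arrays correlated with Spearman coefficients, across probe sets, of 0.961 to 0.978 over the 3 designs. All 14 probe sets of the kidney markers found on array A (Umod, Slc34a1, Lrp2, Slc12a1, Aqp1, Aqp2 and Kap) were above the floor in every kidney. Of the other marker lists on A, skeletal muscle had 0 of 5 probe sets bright enough to be tested, liver 2 of 14, neuron 2 of 9, blood 4 of 5, leukocyte 4 of 7, adipose 1 of 6 (a Lep probe set at 4088 to 6334) and adrenal 1 of 4 (Th). In whole kidney, fewer cells of a type and less RNA per cell cannot be told apart. Low values were most frequent in kidney 4 on A and B: of the probe sets tested, 0.567% on A and 0.821% on B were below 1/2 of the lowest of the other 4 kidneys, against at most 0.431% and 0.456% in any other kidney of these designs. On C the share was highest in kidneys 3 (0.543%) and 4 (0.52%).

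None of the 65 member probe sets that could be tested differed between kidneys 4 and 5 and kidneys 1 to 3 at an adjusted p of 0.05. They covered 36 members: 12 of 13 homologs of 16p13, 8 of 10 of 5q and 16 of 21 of 17p. A probe set was tested when its mean reached the median of its design, and differences are on the log2 scale after low values were raised to a floor. The lowest adjusted p (limma, Benjamini-Hochberg adjustment over all probe sets tested on the design) was 0.999 on A, 0.998 on B and 0.775 on C. Over all probe sets the same threshold was passed by 0% on A, 0.0912% on B and 0% on C. At an unadjusted limma p of 0.05 the members counted 2 of 31 (array A), 1 of 13 (B) and 1 of 21 (C), against 3.49%, 3.49% and 6.2% of all tested probe sets. The count on A was 1 without kidney 1 or without kidney 3, beside 3.17% and 3.63% of all tested probe sets. That on C was 0 without kidney 2. Signals of the 2 sets of kidneys did not overlap for 5 of 31 members' probe sets (A), 2 of 13 (B) and 3 of 21 (C), where the shares of all tested probe sets were 19%, 17.2% and 22.4%. These shares of the members rest on 1 to 5 probe sets per design.

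The size of difference that these arrays leave room for was set by the spread between arrays. For each probe set limma drew this spread towards that of all probe sets tested on the design, so the interval does not rest on its own values alone. The 95% interval of the difference lay within a 2-fold change in either direction for 60 of the 65 member probe sets (A 28 of 31, B 12 of 13, C 20 of 21), and over all tested probe sets for 89.5%, 91.8% and 93.5%. It lay within a 1.5-fold change for 37 of the 65. The median half-width of the interval was 0.42 on the log2 scale, a factor of 1.33. The probe sets whose interval reached past 2-fold were those of Trpv1, of Alox15 (1 of 2) and of Canx (1 of 5) on A, of Skp1 on B and of Pfn1 on C. Differences were of both signs, 31 higher and 34 lower in kidneys 4 and 5. The median difference was −0.10 on A, 0.10 on B and −0.02 on C, beside −0.02, −0.01 and −0.01 over all tested probe sets. It changed sign to 0.030 on A under a filter at the 75th percentile, and to 0.058 on C with quantile normalisation. Taken kidney by kidney, the members' median deviation from the mean of kidneys 1 to 3 on array A was 0.03, 0.04 and −0.05 in these kidneys and −0.01 and −0.08 in kidneys 4 and 5. On array B it was −0.02, 0.12 and −0.01 in Dahl S and 0.04 and 0.10 in congenic kidneys. On array C it was 0.02, 0.04 and −0.02 in Dahl S and 0.0047 and −0.08 in congenic kidneys. Kidney 5 was the lowest of the 5 on A and C, and on B the congenic kidneys lay inside the range of the Dahl S kidneys.

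**Figure D1:**
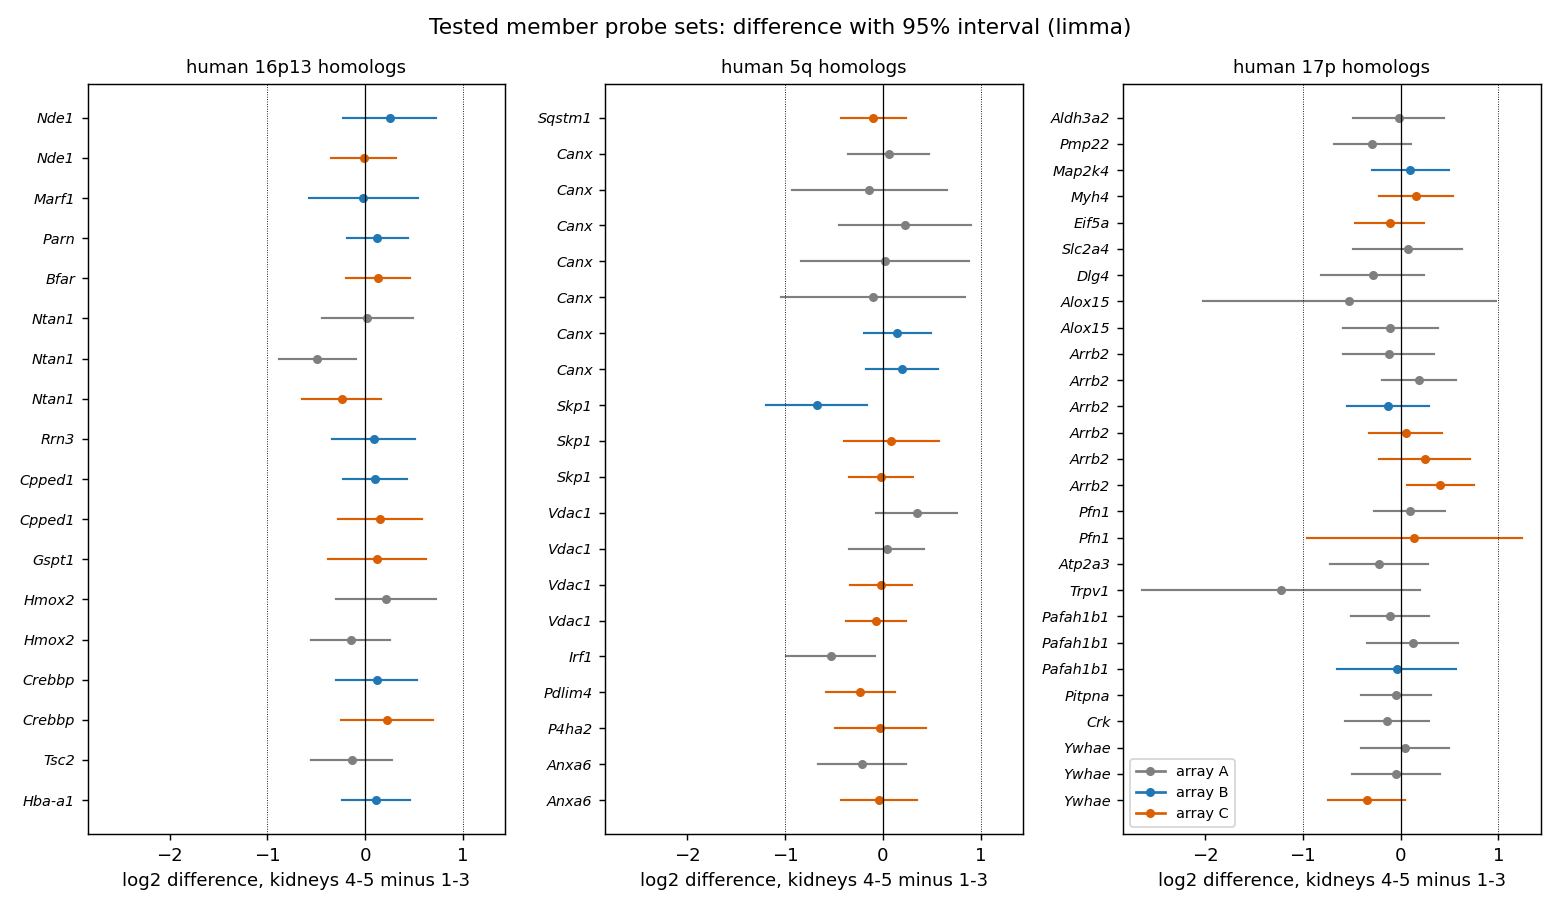
Log2 difference (kidneys 4 and 5 minus kidneys 1 to 3) with its 95% limma interval for the 65 tested member probe sets, in chromosomal order within the 3 blocks of human homology, coloured by array design; dotted lines mark a 2-fold change. Most intervals cross 0 and lie inside the dotted lines, and the widest are those of Trpv1 and 1 Alox15 probe set.

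Irf1 and Ntan1 had the smallest unadjusted p on array A, where the strain of kidneys 4 and 5 is in doubt. Irf1 is a transcription factor that is induced by interferon and activates antigen presentation genes. Its brighter probe set (M34253_g_at) read 1172, 956 and 1068 in kidneys 1 to 3 and 638 and 841 in kidneys 4 and 5. Both values of kidneys 4 and 5 lay below all 3 of the others, 1.45-fold lower in the mean (log2 difference −0.54, SE 0.19, limma unadjusted p = 0.0267, adjusted p = 0.999). Its second probe set, not bright enough to be tested, read 338, 298 and 325 in kidneys 1 to 3 and 197 and 299 in kidneys 4 and 5, which overlap. The leukocyte markers of array A summed to between 19760 and 25823 in kidneys 1 to 3 and to 15720 and 20842 in kidneys 4 and 5, and within them the class II invariant chain Cd74 (probe set X13044_at) was lowest in kidney 4 at 4925, against 6554 to 8809 elsewhere. Kidney 4 was the lowest in 3 of the 4 Cd74 probe sets of that array. The list held 2 genes there, Cd74 and Ptprc. For Ptprc, M25823_s_at was highest in kidney 4, at 234.2 against 81.9 to 109.6 elsewhere. K03039mRNA_s_at (56.4) and M10072mRNA_s_at (12) were lowest in kidney 4. No Ptprc probe set was bright enough to be tested. The part of leukocytes in the Irf1 values was not tested.

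Ntan1 removes the amide from amino-terminal asparagine and so feeds proteins into the N-degron pathway of degradation. Ntan1 (rc_AA894101_g_at) read 1082, 1300.5 and 1097 in kidneys 1 to 3 and 813 and 834.5 in kidneys 4 and 5, with no overlap (log2 difference −0.49, SE 0.17, limma unadjusted p = 0.0216, adjusted p = 0.999). The other Ntan1 probe set of that array comes from the same expressed sequence, and its difference was 0.02 (SE 0.20), with 782, 861 and 1112 in kidneys 1 to 3 and 896 and 944 in kidneys 4 and 5. On array C, another Ntan1 probe set read 2070.5, 2394 and 2138 in kidneys 1 to 3 and 2153 and 1601 in kidneys 4 and 5, a pattern in which kidney 5 alone stood below the Dahl S kidneys (log2 difference −0.24, SE 0.17, limma unadjusted p = 0.198, adjusted p = 0.865). The 3 Ntan1 probe sets thus gave differences of −0.49, 0.02 and −0.24.

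Skp1, the adaptor that links cullin ubiquitin ligases to their substrate receptors, had the smallest p on array B. Skp1 (rc_AA997522_at) read 634, 895 and 716 in kidneys 1 to 3 and 388 and 551 in kidneys 4 and 5. Both congenic kidneys lay below all Dahl S kidneys, 1.60-fold lower in the mean (log2 difference −0.68, SE 0.22, limma unadjusted p = 0.0179, adjusted p = 0.998). Array C holds 2 other Skp1 probe sets. The brighter of them read 25754, 28872 and 25052 in kidneys 1 to 3 and 27323 and 25099 in kidneys 4 and 5, and its difference was −0.02 (95% interval −0.35 to 0.31). The dimmer read 976, 1259.9 and 840.5 in kidneys 1 to 3 and 952 and 1211 in kidneys 4 and 5, a difference of 0.09 (95% interval −0.40 to 0.57). In both the strains overlapped, so the 3 probe sets for Skp1 did not give one direction. Of the 3 intervals, that of array B (−1.20 to −0.16) was the one that left out 0.

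Arrb2, the scaffold beta-arrestin 2 that uncouples and internalises G protein-coupled receptors, had the smallest p on array C and 6 tested probe sets over the 3 designs. Arrb2 (rc_AI178546_at) read 973, 909 and 935 in kidneys 1 to 3 and 1368 and 1134 in kidneys 4 and 5. Congenic kidneys were 1.33-fold higher in the mean, without overlap (log2 difference 0.41, SE 0.15, limma unadjusted p = 0.0248, adjusted p = 0.775). The second probe set of array C (rc_AI136065_s_at) read 1430.3, 1556.5 and 1030.5 in kidneys 1 to 3 and 1641 and 1498 in kidneys 4 and 5, and the strains overlapped (difference 0.25, SE 0.20). The dimmest (rc_AI136065_i_at) read 686, 666 and 647 in kidneys 1 to 3 and 790.1 and 603 in kidneys 4 and 5 (difference 0.05, SE 0.16). On array B the direction was the opposite in kidney 4: the tested Arrb2 probe set read 1188, 1041 and 1157 in kidneys 1 to 3 and 881 and 1204 in kidneys 4 and 5 (difference −0.13, SE 0.17). On array A the differences of M91590_at and M91590_g_at, which share one source sequence, were −0.12 and 0.19. M91590_at read 544, 525 and 537 in kidneys 1 to 3 and 409 and 592 in kidneys 4 and 5. M91590_g_at read 459, 425 and 425 in kidneys 1 to 3 and 464 and 531 in kidneys 4 and 5, without overlap. Kidney 4 was the highest of the kidneys in all 3 Arrb2 probe sets of array C and the lowest in those named M91590_at on A and rc_AI013765_s_at on B.

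**Figure D2:**
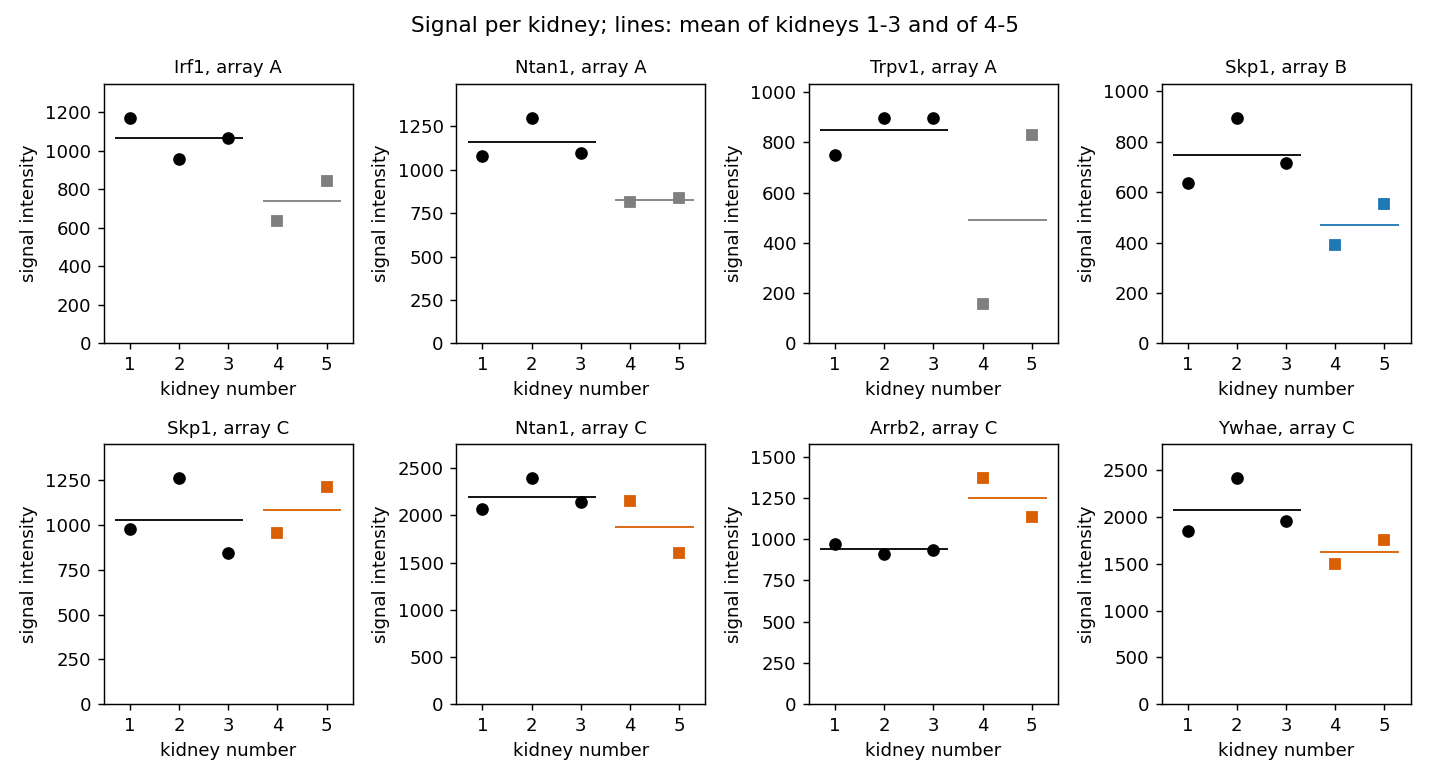
Signal intensity (linear axis from 0) by kidney number for member probe sets with small p and for comparison probe sets of Skp1 and Ntan1; circles are kidneys 1 to 3 (Dahl S), squares kidneys 4 and 5 (congenic on B and C, strain in doubt on A), and lines are the means. Irf1 and Ntan1 on A, Skp1 on B and Arrb2 and Ywhae on C separate without overlap, while Skp1 and Ntan1 on C overlap and Trpv1 is low in kidney 4 alone.

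Ywhae, the epsilon form of the 14-3-3 proteins that bind phosphorylated partners, came next on array C. Ywhae (rc_AI176615_s_at) read 1856, 2414 and 1959 in kidneys 1 to 3 and 1499 and 1752 in kidneys 4 and 5, again without overlap (log2 difference −0.35, SE 0.17, limma unadjusted p = 0.0754, adjusted p = 0.81). On array A its probe sets D30739_s_at and rc_AA965154_at had differences of 0.05 and −0.05 (SE 0.19 each), with values of 4896, 5591, 4024, 4909.7 and 4988 in kidneys 1 to 5 for the former. The latter read 670, 715 and 530.5 in kidneys 1 to 3 and 581 and 648 in kidneys 4 and 5, and both overlapped. Crk, an adaptor of tyrosine kinase signalling, differed by −0.14 (SE 0.18) and Pitpna, a phosphatidylinositol transfer protein, by −0.05 (SE 0.15), both on A. Pafah1b1 and Nde1, which act together on the motor protein dynein, lie at opposite ends of the members. Pafah1b1 had differences of −0.11 and 0.12 on A and −0.04 on B.

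Nde1 on array B was high in 1 congenic kidney. Nde1 (rc_AI045244_at) read 1534.5, 1469 and 1489 in kidneys 1 to 3 and 1429.5 and 2212 in kidneys 4 and 5, so that kidney 5 stood above the other 4 and kidney 4 below them (log2 difference 0.25, SE 0.20, limma unadjusted p = 0.258, adjusted p = 0.998). On array C, Nde1 read 1365, 1334 and 1551 in kidneys 1 to 3 and 1374 and 1419.5 in kidneys 4 and 5, with a difference of −0.02 (SE 0.14). Kidney 5 was not set apart there. Beside it on the chromosome, Marf1, a regulator of mRNA stability, differed by −0.02 (SE 0.23) on B. Parn, a ribonuclease that shortens poly(A) tails, had congenic values above all Dahl S values by a small margin. Parn (rc_AI013289_at) read 751, 809 and 810.4 in kidneys 1 to 3 and 893 and 829.8 in kidneys 4 and 5 (log2 difference 0.12, SE 0.13, limma unadjusted p = 0.369, adjusted p = 0.998).

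The 3 blocks of human homology did not share a direction on arrays B and C. Over all tested probe sets the mean of kidneys 4 and 5 was the higher in 48.6% on B and 47.9% on C. Among homologs of 16p13 it was the higher in 6 of 7 on B and 4 of 6 on C, with medians of 0.11 and 0.12. Among those of 5q it was the higher in 2 of 3 and 1 of 8, with medians of 0.15 and −0.03, and among those of 17p in 1 of 3 and 5 of 7, with medians of −0.04 and 0.14. With quantile normalisation the 5q count on C was 4 of 8 and its median turned to 0.0097. With array quality weights the 17p median on B turned to 0.019, and under a filter at the 75th percentile of signal the 16p13 median on C turned to −0.017 over 3 probe sets. On array A the 16p13 median was −0.14 over 5 probe sets. Over B and C, 16p13 homologs had 13 tested probe sets. Of these, 10 were higher in kidneys 4 and 5, against 11 with median scaling, 12 with array quality weights and 4 of 6 under the filter at the 75th percentile. None of these 13 had an unadjusted p under 0.05. Crebbp, a histone acetyltransferase and coactivator, differed by 0.12 (SE 0.17) on B and 0.23 (SE 0.20) on C. Cpped1, a phosphatase of the calcineurin-like fold, differed by 0.10 (SE 0.14) and 0.15 (SE 0.18). Rrn3, an initiation factor of RNA polymerase I, differed by 0.09 (SE 0.18) on B, Bfar, an apoptosis regulator, by 0.13 (SE 0.14) on C, and Gspt1, a translation termination factor, by 0.12 (SE 0.22) on C. The 95% interval of each of these differences included 0. On array A, Hmox2, the constitutive heme oxygenase, had probe sets at 0.21 and −0.15 (SE 0.22 and 0.17), and Tsc2, the tuberous sclerosis gene that restrains mTOR, differed by −0.14 (SE 0.18).

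Canx (calnexin), the membrane chaperone that holds glycoproteins in the endoplasmic reticulum, had the most probe sets, with 7 tested and 2 not. On array B the brighter of its tested probe sets (rc_AA946205_at) read 10987, 9940 and 11759 in kidneys 1 to 3 and 12738 and 11359 in kidneys 4 and 5 (difference 0.15, SE 0.14). The other (rc_AA998523_f_at) read 1309.9, 1621 and 1309 in kidneys 1 to 3 and 1573 and 1646 in kidneys 4 and 5 (difference 0.19, SE 0.15). Congenic and Dahl S kidneys overlapped in both. On array A the 5 tested probe sets had differences from −0.14 to 0.23, with standard errors of 0.18 to 0.40. Most of that spread came from kidneys 3 and 5. Canx (rc_AI010725_g_at) read 6640, 6875 and 3521 in kidneys 1 to 3 and 7367 and 4128 in kidneys 4 and 5. Canx (rc_AI235707_g_at) read 5322, 5944.5 and 3069 in kidneys 1 to 3 and 6370.5 and 2879 in kidneys 4 and 5, and rc_AA893328_at was lowest in the same pair. That probe set (rc_AA893328_at) read 1163, 1673 and 949 in kidneys 1 to 3 and 1534 and 810.4 in kidneys 4 and 5. By contrast, L18889_at read 3101, 3287.5 and 3248 in kidneys 1 to 3 and 3799 and 2953 in kidneys 4 and 5, where kidney 3 was not low. The last (rc_AI010725_at) read 4911, 5103 and 2881 in kidneys 1 to 3 and 5628 and 4225 in kidneys 4 and 5, lowest in kidney 3 and next in kidney 5. Thus 1 kidney of each number group was low in 3 of the Canx probe sets of array A, and neither probe set tested on array B had kidney 3 or 5 set apart in that way. The design gives no label that separates kidneys 3 and 5 from the others.

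**Figure D3:**
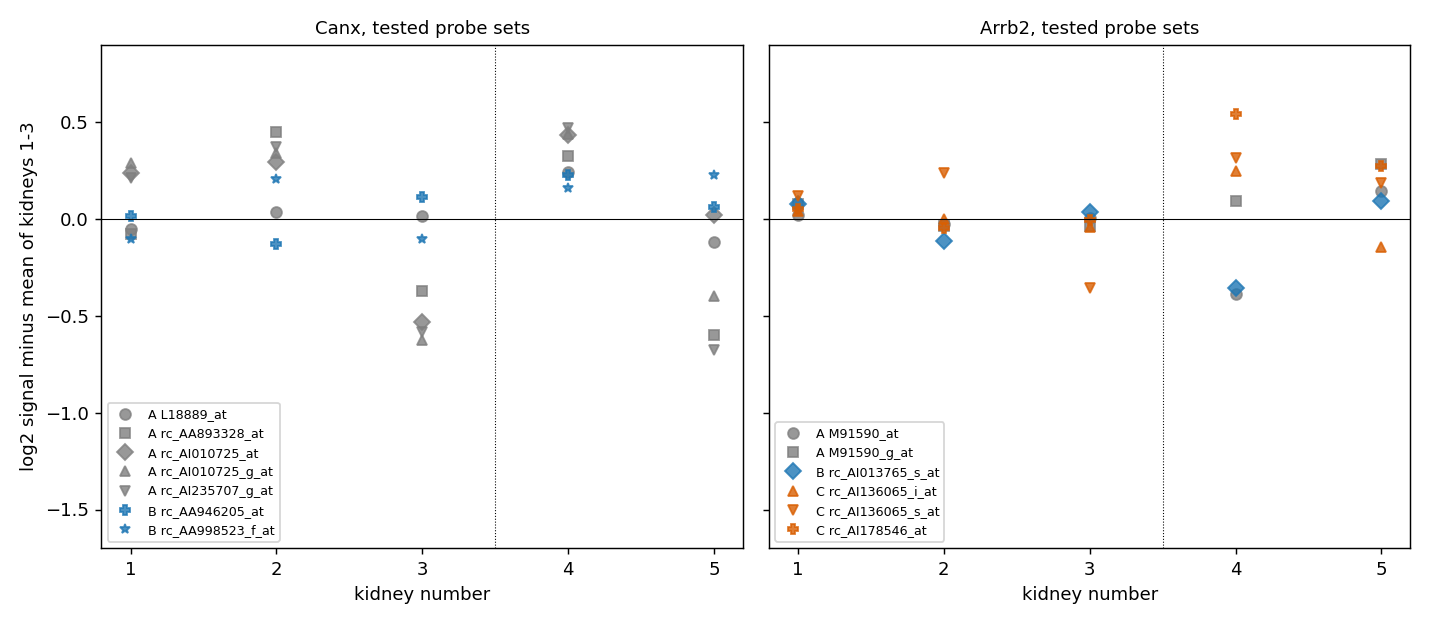
Log2 signal minus the mean of kidneys 1 to 3, by kidney number, for the tested probe sets of Canx (left) and Arrb2 (right); grey is array A, blue B and orange C, and each symbol is a probe set. For Canx, most grey symbols fall low in kidneys 3 and 5 while blue ones stay near 0. The exceptions are L18889_at in kidney 3 and rc_AI010725_at in kidney 5. For Arrb2, kidney 4 is high on C and low for 1 probe set each of A and B.

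Vdac1, the voltage-dependent channel of the outer mitochondrial membrane, had tested probe sets on A and C. Vdac1 (AF048828_at) read 1929, 1868 and 1587 in kidneys 1 to 3 and 2105 and 2459 in kidneys 4 and 5, without overlap and higher in kidneys 4 and 5 (log2 difference 0.35, SE 0.18, limma unadjusted p = 0.0878, adjusted p = 0.999). Its partner from the same source sequence, AF048828_g_at read 4461, 4563 and 4291 in kidneys 1 to 3 and 4971 and 4179 in kidneys 4 and 5, which overlap, with a difference of 0.04 (SE 0.16). On array C the Vdac1 probe sets differed by −0.02 and −0.07 (SE 0.14 and 0.13), with 24657, 23508.5 and 23919 in kidneys 1 to 3 and 23719 and 22119.9 in kidneys 4 and 5 for the brighter (rc_AI176266_at) and 11568, 12890.1 and 13148.5 in kidneys 1 to 3 and 12123.5 and 12559 in kidneys 4 and 5 for the other. The congenic and Dahl S kidneys overlapped in both of these. Pdlim4, a PDZ and LIM protein of the actin cytoskeleton, read 639, 723 and 638 in kidneys 1 to 3 and 621 and 516.5 in kidneys 4 and 5 of array C (log2 difference −0.23, SE 0.15, limma unadjusted p = 0.166, adjusted p = 0.865). Its probe set on array A, not bright enough to be tested, was the higher in the mean of kidneys 4 and 5. It read 225, 82.2 and 192 in kidneys 1 to 3 and 361 and 188 in kidneys 4 and 5, which overlap. Sqstm1, the autophagy receptor p62, read 11189.5, 10379.6, 11498, 11048 and 9576 in kidneys 1 to 5 of array C (difference −0.10, SE 0.14), and its probe set on array A was below the floor in all 5. Anxa6, a calcium-dependent membrane-binding annexin, differed by −0.22 (SE 0.19) on A and −0.04 (SE 0.17) on C, and P4ha2, a collagen prolyl hydroxylase subunit, by −0.03 (SE 0.20) on C.

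Trpv1, the capsaicin receptor of sensory neurons, had the largest difference of the tested member probe sets, and it came from 1 kidney. Trpv1 (AF029310_at) read 748.5, 898.5 and 899 in kidneys 1 to 3 and 158 and 828 in kidneys 4 and 5. Kidney 5 was inside the range of kidneys 1 to 3, and the groups overlapped (log2 difference −1.23, SE 0.60, limma unadjusted p = 0.0806, adjusted p = 0.999). The Trpv1 difference was −2.42 without kidney 5 and −0.03 without kidney 4. In each of these 1 kidney stands alone, so the spread comes from kidneys 1 to 3 and no test is read from it. Alox15, the arachidonate 15-lipoxygenase of macrophages and reticulocytes, had a probe set with the same single low kidney: L06040_s_at read 679.6, 312 and 413 in kidneys 1 to 3 and 139.7 and 682.5 in kidneys 4 and 5. Its second probe set, S69383_at, was also lowest in kidney 4, at 1076 against 1233 to 1529 in the others. Trpv1 and Alox15 were the 2 member probe sets, of 25 tested probe sets on array A in all, whose kidney 4 value was below 1/2 of that of every other kidney. Whether that array or that kidney accounts for them was not tested.

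Several members are known from cells other than tubule epithelium. Hba-a1, an alpha chain of hemoglobin, was the brightest member of array B. Hba-a1 (rc_AA851497_f_at) read 91030.2, 75457 and 79064 in kidneys 1 to 3 and 83698 and 92415 in kidneys 4 and 5, and the difference was 0.11 (SE 0.15). Of the blood markers on array A, Hbb read 14454.5 to 22710 and the erythroid heme synthesis enzyme Alas2 read between 1321 and 1898. Slc4a1, also on the blood list, read 1327 to 1811 and 1438 to 2169 in its tested probe sets on A, and 7001 to 8711 on B. Which cells of the kidney gave the Slc4a1 signal was not tested, and it is not read as a measure of blood. On array C, Ahsp, the chaperone of alpha hemoglobin, was below the floor in all 5 kidneys, and the red cell membrane protein Epb42 was above it in kidney 4 alone, at 178. A further 9 probe sets carry Hba-a1 together with Hba-a2 and were left unnamed. Myh4, a myosin heavy chain of fast skeletal muscle, read between 31.4 and 227 on array A, below the level for testing. On array C another probe set of that symbol gave 2491, 2654, 2083, 2494 and 2863 in kidneys 1 to 5 (difference 0.16, SE 0.16). The muscle marker Tnnt3 read 53.6 to 102 on array C, below the floor of 153.6, so this Myh4 signal stood without that of the other muscle gene there.

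Members with 0 tested probe sets were Abcc1, an organic anion exporter, Gria1, Aldh3a1, an aldehyde dehydrogenase of cornea and other surfaces, Shbg, the carrier of sex steroids in plasma, Asgr1, Eno3, the muscle enolase, and P2rx1, an ATP-gated channel of smooth muscle and platelets. Eno3 read 3.2 to 5.7 and lay below the floor of 85.1 in all 5 kidneys of array A, as did 1 probe set each of Abcc1 and Gria1. Asgr1 (M21770_at) read 256, 189 and 244 in kidneys 1 to 3 and 423 and 348 in kidneys 4 and 5, without overlap but below the level for testing. Its second probe set lay below the floor in 3 of 5 kidneys. Other untested probe sets without overlap were those of Slc2a4 (rc_AA799760_s_at, higher in kidneys 4 and 5), Gria1 (M36418_s_at, lower) and, on array B, Canx (rc_AI059038_at, lower). Each of these lay below the floor in 4 of 5 kidneys. Of all tested probe sets, 19% on A and 17.2% on B were without overlap. Aldh3a1 lies next to Aldh3a2, the fatty aldehyde dehydrogenase, in gene order. It read 269.8 to 342 on A, and the 1 tested Aldh3a2 probe set differed by −0.02 (SE 0.20).

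The last members to be listed lay in the 17p block. Pmp22, a tetraspan protein of peripheral myelin and epithelia, (S55427_s_at) read 749, 619 and 633 in kidneys 1 to 3 and 558 and 532 in kidneys 4 and 5, without overlap (log2 difference −0.29, SE 0.17, limma unadjusted p = 0.13, adjusted p = 0.999). Dlg4, a postsynaptic scaffold, differed by −0.29 (SE 0.22), Atp2a3, a calcium pump of the endoplasmic reticulum, by −0.22 (SE 0.21), and Slc2a4, the insulin-responsive glucose transporter, by 0.07 (SE 0.24), all on A. Map2k4, a kinase upstream of JNK, differed by 0.10 (SE 0.16) on B. Eif5a, a translation factor modified with hypusine, read 24912, 25555 and 30045 in kidneys 1 to 3 and 26103 and 23481 in kidneys 4 and 5 (difference −0.11, SE 0.15). Pfn1, the actin monomer binding protein profilin, had a bright probe set on A, with 8733, 9421 and 8638 in kidneys 1 to 3 and 9243 and 9785 in kidneys 4 and 5 (difference 0.09, SE 0.16). On array C its probe set gave 361, 991, 601, 1009.8 and 431 in kidneys 1 to 5, and the interval of that difference, −0.96 to 1.24, was the widest of the array's members.

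Of the 14 members with 2 or more tested probe sets, 5 had differences of one sign in all of them and 9 had both signs. Probe sets of a gene on the same design share kidneys and target and are not independent. Across designs they share a target, and the labels repeat the kidney numbers without saying that the tissue is the same. Among tested probe sets of other chromosome 10 genes up to Ywhae, an unadjusted limma p under 0.05 was found for 6 of 133 on array B (4.51%) and 11 of 147 on array C (7.48%). After Ywhae, on the later part of the chromosome, it was found for 12 of 176 (6.82%) and 24 of 160 (15%), and on other chromosomes for 90 of 3000 (3%) and 172 of 3166 (5.43%). Array A had 3 of 133, 7 of 184 and 111 of 3324. The median absolute difference was 0.12 on both B and C for the members, 0.12 and 0.15 for their neighbours up to Ywhae, 0.14 and 0.15 for the later part and 0.12 and 0.13 for other chromosomes. None of the chromosome 10 probe sets in these sets passed an adjusted p of 0.05 on any design.

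**Figure D4:**
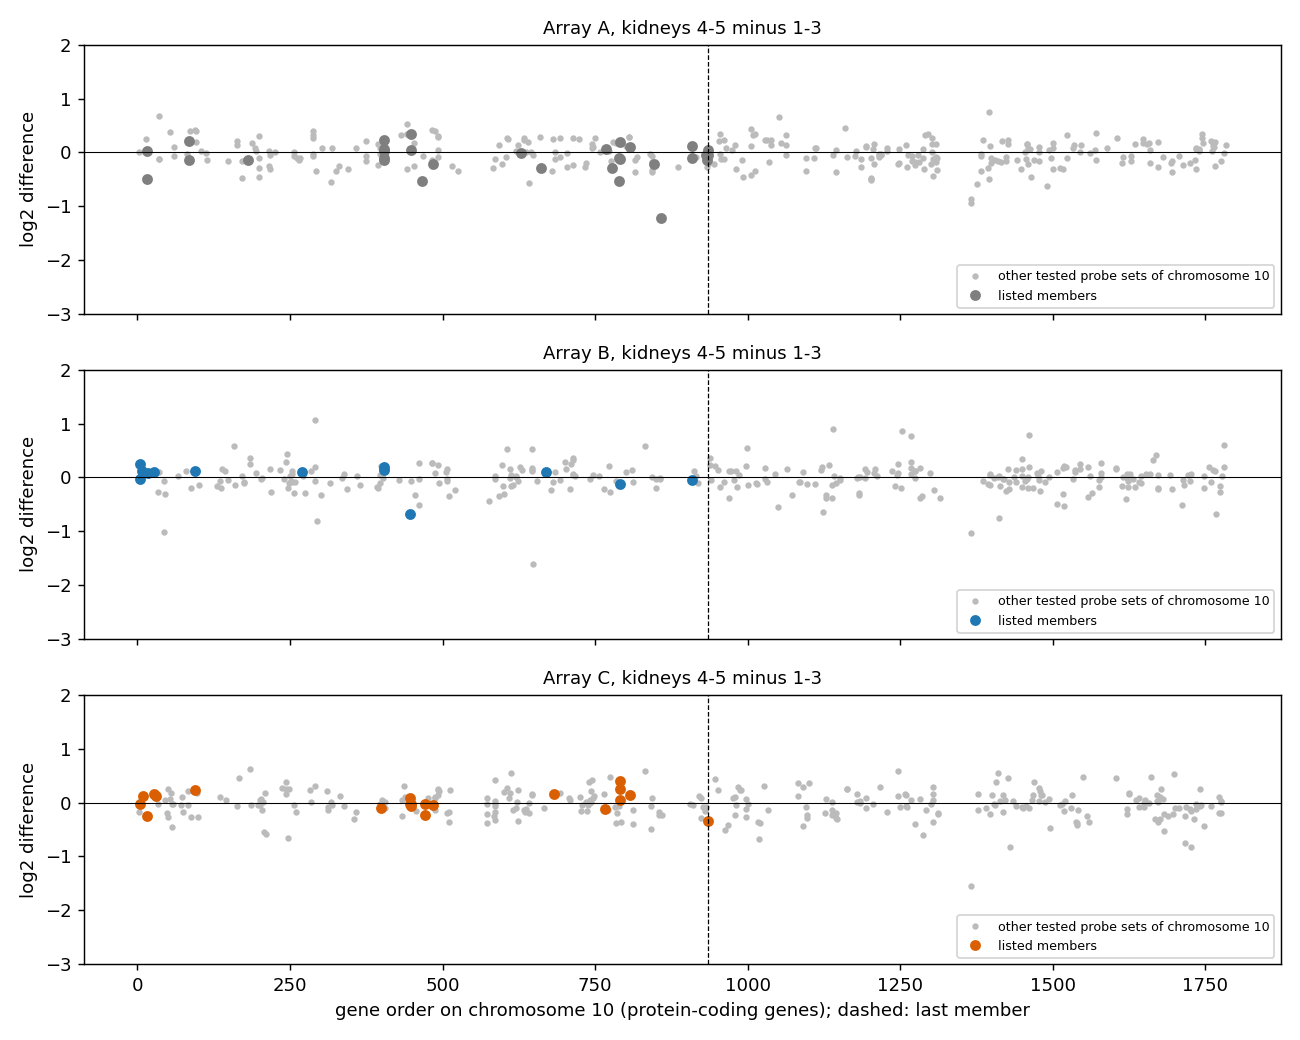
Log2 difference (kidneys 4 and 5 minus kidneys 1 to 3) of all tested chromosome 10 probe sets against gene order, 1 panel per array design; large coloured points are the listed members, small grey points other genes, and the dashed line marks Ywhae. Members scatter around 0 among their neighbours, with Skp1 low on B and Trpv1 low on A.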

How the data were processed

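The values deposited by the authors are 1 linear signal intensity per probe set and array; scanner software, normalization and background subtraction: not given in the sources used here. Each array had already been scaled, and that scale was kept. Members and lists were chosen with earlier results of these data known. Each design was analysed in its own table, without its 59 control probe sets. Values were raised to the 25th percentile of the design (85.1 on A, 140.1 on B, 153.6 on C) before log2 was taken. A probe set was tested if its mean reached the median (319.5, 485.8 and 510.3), which left 4411, 4385 and 4420. Kidneys 4 and 5 were compared with kidneys 1 to 3 by lmFit and eBayes of limma 3.58.1 (R 4.3.3), with Benjamini-Hochberg adjustment over the design and a threshold of 0.05; the procedure was tested on simulated data. Symbols came from the platform annotation, updated by gene identifier to GRCr8 (18122 of 18178 single-symbol probe sets matched). The number of arrays limits precision. Values in every kidney are printed for the 5 smallest p and the 2 brightest member probe sets per design, and for tested probe sets on other designs of the genes so chosen.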

Additional observations from a re-analysis of the deposited data

How the results depend on the processing

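No member probe set passed an adjusted p of 0.05 under any alternative that kept all arrays (quantile normalisation, median scaling, other floors and filters, an intensity trend with robust variance, array quality weights). On array A, leaving out kidney 1, 2 or 3 gave 0 such probe sets. Without kidney 4 or kidney 5 a single kidney stands alone and is assumed to vary like kidneys 1 to 3. No count is read from those fits. Member probe sets at an unadjusted limma p under 0.05 numbered 1 to 2 on A when kidney 1, 2 or 3 was left out. The share of all tested probe sets was then 2.9% to 3.63%. On C the number was 0 without Dahl S kidney 2. A stricter filter, at the 75th percentile, gave 1 of 14 on A (4.46% of all tested probe sets), 0 on B and 0 on C. No filter gave 0 on B, and median scaling 2 on C. Without these changes the counts were 1 of 13 on B and 1 of 21 on C, beside 3.49% and 6.2% of all tested probe sets. Counts this small on B and C are not read as a result about the members. The median difference on A was −0.034 with median scaling, −0.032 without a filter and 0.030 under the stricter one (−0.11 to −0.011 without 1 array). On C it was 0.058 with quantile normalisation and −0.050 with median scaling (−0.079 to 0.045 without 1 array).

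Among 36 probe sets followed, 18 turned sign in 36 of 454 alternative values. With kidneys 4 and 5 both kept, none of the alternative values passed the adjusted threshold. The values without kidney 4 or kidney 5 are read for their size alone, and the largest of these was that of Trpv1 without kidney 5 (−2.42). With array quality weights the difference was −0.084 for Canx (rc_AI010725_g_at), 0.011 for Vdac1 (AA848348_at) and 0.00057 for Nde1 on C. With median scaling it was 0.022 for Ywhae (rc_AA965154_at). With quantile normalisation it was 0.088 for Skp1 (rc_AI236635_at), and 0.043 (AA848348_at) and 0.058 (rc_AI176266_at) for Vdac1. Without 1 array the Canx probe sets of A ranged from −0.40 to 0.44 (rc_AI010725_g_at), −0.12 to 0.24 (L18889_at), −0.60 to 0.32 (rc_AA893328_at), −0.038 to 0.43 (rc_AI010725_at) and −0.67 to 0.47 (rc_AI235707_g_at). Arrb2 ranged from −0.39 to 0.14 (M91590_at), −0.35 to 0.095 (array B) and −0.14 to 0.25 (rc_AI136065_i_at), and Ywhae from −0.080 to 0.16 (D30739_s_at) and −0.17 to 0.041 (rc_AA965154_at). Ntan1 ranged from −0.089 to 0.16 (rc_AA894101_at), and Nde1 from −0.067 to 0.56 (B) and −0.059 to 0.050 (C). Vdac1 ranged from −0.086 to 0.16 (AF048828_g_at) and −0.077 to 0.015 (AA848348_at), and Skp1 from −0.079 to 0.044 (rc_AI236635_at) and −0.087 to 0.26 (rc_AI235972_at). The cause was not tested. No paired analysis was possible because kidneys 1 to 3 and kidneys 4 and 5 share no number. Signals near the floor limit Sqstm1 on A, Eno3, Abcc1 and Gria1.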
